A study of Homo sapiens with 6 samples.

Results

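The zinc finger genes of chromosome 19 were taken as every row of the deposited gene table annotated as protein-coding, named ZNF followed by a number, and placed on chromosome 19. That rule gave 249 of the 58302 genes in the table and used no measured value. RNA had been sequenced from MDA-MB-231-DR, a subline made resistant to doxorubicin from MDA-MB-231, a human cell line of triple-negative breast cancer, and kept in a low concentration of the drug, which both groups shared as far as the methods say. Control libraries (n = 3) came from MDA-MB-231-DR cells without further treatment, and CYT libraries (n = 3) from the same resistant cells treated with cyperotundone (CYT), a sesquiterpene ketone of Cyperus rotundus. The comparison asked which genes CYT altered in drug-resistant cells, in a single cell line. The dose and duration of CYT for these libraries were not given in the sources used here, and the labels did not say whether the 3 replicates of a group came from separate cultures. A general statement in the methods names independent experiments without saying whether it covers these libraries, so p-values measured the spread between these samples, which may be technical.

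Most of these genes encode C2H2 zinc finger proteins, in which tandem fingers each read a few bases of DNA. Many carry a KRAB domain before the fingers, which recruits the scaffold TRIM28 and through it the H3K9 methyltransferase SETDB1, heterochromatin proteins and histone deacetylases. The family is known for silencing transposable elements, expanded by tandem duplication, and lies in dense clusters along chromosome 19, many of which are themselves covered by H3K9me3.

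Promoters from RefSeq (GRCh38.p14, 250 bases before to 50 after each annotated start) were found for 217 of the 249 genes. The 4 promoters below belong to the 3 called genes with the largest rises among those averaging at least 1 CPM (counts scaled to library size) and the called gene with the largest fall. Each is written 5′ to 3′ on the strand of the gene, and capitals mark every copy, on either strand, of CCGGAA (reverse complement TTCCGG), the core bound by ETS factors, and of ACTACA followed by any 2 bases and TCCC, which is part of the long sequence bound by ZNF143 (here the ZNF143-type sequence). The ZNF616 promoter lies at chr19:52139889-52140188 on the minus strand, and those of ZNF420 (chr19:37078183-37078482), ZNF225 (chr19:44113149-44113448) and ZNF444 (chr19:56141037-56141336) on the plus strand. The ZNF420 gene as counted spans chr19:37007857-37130314, so its window lies at a start inside the gene and not at its first base.
ZNF616: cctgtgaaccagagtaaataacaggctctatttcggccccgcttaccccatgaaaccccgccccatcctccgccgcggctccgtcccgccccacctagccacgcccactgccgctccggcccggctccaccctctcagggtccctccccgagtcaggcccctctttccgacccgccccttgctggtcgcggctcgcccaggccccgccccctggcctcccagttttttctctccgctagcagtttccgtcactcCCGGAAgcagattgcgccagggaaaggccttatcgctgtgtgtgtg
ZNF420: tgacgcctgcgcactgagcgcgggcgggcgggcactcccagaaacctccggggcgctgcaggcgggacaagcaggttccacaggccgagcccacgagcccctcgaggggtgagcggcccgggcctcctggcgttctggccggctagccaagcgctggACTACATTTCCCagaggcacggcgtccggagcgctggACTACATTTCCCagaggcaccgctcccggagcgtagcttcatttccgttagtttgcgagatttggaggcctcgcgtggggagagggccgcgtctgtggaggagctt
ZNF225: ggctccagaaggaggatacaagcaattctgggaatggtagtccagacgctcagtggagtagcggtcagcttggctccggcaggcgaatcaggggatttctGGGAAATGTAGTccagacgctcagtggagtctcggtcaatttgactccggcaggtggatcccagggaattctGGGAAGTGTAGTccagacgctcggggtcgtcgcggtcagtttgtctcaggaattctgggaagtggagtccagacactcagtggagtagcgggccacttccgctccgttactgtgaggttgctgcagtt
ZNF444: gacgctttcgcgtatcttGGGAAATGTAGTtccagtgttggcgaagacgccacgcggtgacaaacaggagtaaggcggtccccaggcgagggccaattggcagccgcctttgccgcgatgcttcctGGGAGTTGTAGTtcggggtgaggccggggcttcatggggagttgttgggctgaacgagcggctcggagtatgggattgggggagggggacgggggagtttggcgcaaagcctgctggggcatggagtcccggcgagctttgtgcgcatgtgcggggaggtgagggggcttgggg

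ZNF616 had 1 copy of CCGGAA next to the start, while ZNF420, ZNF225 and ZNF444 had 2 copies each of the ZNF143-type sequence and no CCGGAA. Over all 217 promoters, 122 (56.2%) held CCGGAA, against 17.2% of the 35116 promoters in the table, 21.2% of those of protein-coding genes, 45.8% of 212 promoters of ZNF genes on other chromosomes and 22.3% of 922 promoters of other coding genes on chromosome 19. The ZNF143-type sequence, searched after the promoters had been seen, was in 32 (14.7%), against 1.75% of all promoters and 18 of 212 (8.49%) of ZNF genes on other chromosomes. A TATA box (TATAAA) was in 1.84% against 11.5% of all and 9.47% of coding promoters, and the GC box GGGCGG in 68.2% against 44.95% and 56.3%. Both strands were searched, and the C or G letters at the ends of these motifs can overlap. Both differed by position: the ZNF143-type sequence was in 10 of 24 promoters of cluster 6 and 10 of 20 of cluster 7, but in 0 of 25 of cluster 3, 0 of 29 of cluster 4 and 1 of 33 of cluster 8, where CCGGAA was in 24 (clusters are defined below). Of the genes called higher after CYT, 23 of 34 promoters held CCGGAA, against 59 of 109 for tested genes not called and 1 of 6 for genes called lower. The ZNF143-type sequence was in 7 of the 34, 16 of the 109 and 2 of the 6. A match is a description of the letters, and no match says only that they are not in this window.

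The libraries held 13056270 to 17770102 counts in genes, and log expression correlated at 0.904 to 0.971 between libraries of the same group. As markers of a mesenchymal triple-negative line, VIM, CD44, EGFR, CAV1 and AXL were counted in every library, with a summed level of 3646 to 4040 CPM in control and 1656 to 1804 CPM after CYT. Of the 5, VIM and EGFR were called lower, and CD44, CAV1 and AXL were not called (log2 fold changes of -0.19, -1.03 and -0.82). The luminal and epithelial markers ESR1, PGR, EPCAM and CDH1 were at most 1.14 CPM in any library, GATA3 was at 2.47 to 4.95 CPM, and markers of other cell types (PTPRC, CD3E, PECAM1, ALB, HBB) summed to 1.18 to 2.68 CPM with CD3E at 0. The summed level of the mesenchymal list moved with the treatment, and its part in the results was not tested. In bulk RNA, fewer cells of a kind and less RNA per cell cannot be told apart.

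Of the 249 genes, 163 had enough counts to be tested, and among them rises after CYT outnumbered falls. With edgeR's quasi-likelihood test and Benjamini-Hochberg adjustment over all 15572 tested genes, 38 genes (23.3%) were called higher, meaning an adjusted p under 0.05 and a log2 fold change over 1. The background was 15.2% of all tested genes and 11.9% of tested protein-coding genes. Another 7 (4.29%) were called lower, against 12.2% of all and 13.8% of protein-coding genes. A gene could pass the count filter through 1 group alone, and 2 of the 38 had 0 counts in every control library. With the replicate number as a block, 43 were higher (26.4%, against 16.6% of all genes in that fit) and 13 lower (7.98%, against 15.5%). Correcting for length and GC content gave 48 higher (29.4%, against 17.2%) and 14 lower (8.59%, against 15.6%). The excess of rises over the background was not seen with limma on log2(FPKM + 1), where 12 members (7.36%) were called higher against 8.12% of all genes, and it was small with log2(FPKM + 0.1), at 15.3% against 14.7%. The median log2 fold change was 0.57 over the 163 genes, 0.01 over all genes and -0.07 over protein-coding genes, and 115 of the 163 lay above zero. The ZNF genes of other chromosomes had 31 of 219 (14.2%) called higher, 15 called lower and a median of 0.32, and the other coding genes of chromosome 19 had 78 of 752 (10.4%) higher, 106 lower and a median of -0.25.

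**Figure D1:**
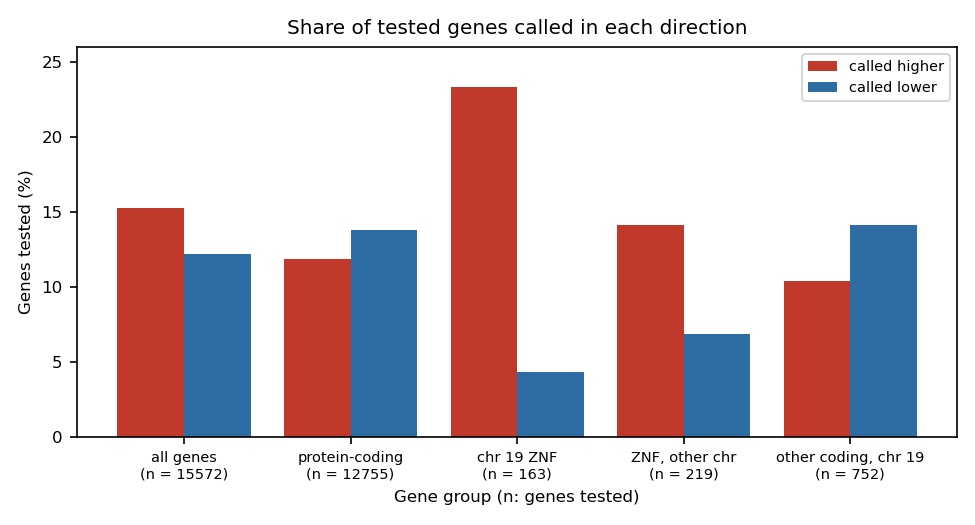
Bars give the percent of tested genes called higher (red) or lower (blue) after CYT in each gene group, with the number of genes tested under each name. The chromosome 19 ZNF genes had 23.3% called higher and 4.29% called lower, while all tested genes had 15.2% and 12.2%.

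Separation of the libraries gave a like picture. In 54 of the 163 genes (33.1%) every CYT library lay above every control library, against 23.4% of all tested and 19.6% of protein-coding genes. The opposite order was seen in 18 (11.04%), against 22.7% and 25.2%. Every one of the 38 genes called higher was among the 54, and 6 of the 7 called lower were among the 18, the exception being ZNF358. At an unadjusted p under 0.05, 53 genes (32.5%) were higher, against 21.5% of all tested and 18.1% of protein-coding genes, and 18 (11.04%) were lower, against 19.4% and 21.7%.

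The genes were lowly expressed, with a median of 5.89 CPM against 18.4 CPM over all tested genes. Level and base composition were therefore set beside the counts. Among genes averaging at least 5 CPM, 25 of 89 (28.1%) were called higher and 7 (7.87%) lower, while of 10562 protein-coding genes at that level 1017 (9.63%) were higher and 1548 (14.7%) lower. Below 5 CPM, 13 of 74 (17.6%) were called higher and none lower, while of 2193 protein-coding genes 497 (22.7%) were higher and 210 (9.58%) lower. The share of rises was thus above that of coding genes in the first class and below it in the second. Level was not matched within the first class, where the median was 11.4 CPM for members and 34.3 CPM for coding genes. In the second class the medians were 2.54 and 2.05 CPM. The median exonic GC content of the members was 42.5% against 48.6% over all genes. Within the interquartile GC range of the members, 26 of 81 were called higher and 1 lower (median log2 fold change 0.77), and of 3332 other protein-coding genes in that range 389 were higher and 373 lower (median 0.00). Level was not matched there either, with a median of 5.89 CPM for the 81 members and 23.5 CPM for the other coding genes.

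The CYT libraries were not alike in size of response. The median log2 ratio to the mean of control over the 163 genes was 0.43 in CYT replicate 1, 0.88 in replicate 2 and 0.28 in replicate 3. CYT replicate 2 was the highest CYT library for 31 of the 38 genes called higher and the lowest for 6 of the 7 called lower. Without it, 32 genes (19.5%) were called higher and 14 (8.54%) lower, against 16.4% and 14.4% of all genes in that fit, and the median was 0.30. Leaving out control replicate 1 gave 23 higher (13.5%, against 10.9% of all genes) and 4 lower, and leaving out control replicate 3 gave 22 (12.9%, against 10.3%) and 3.

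The chromosome 19 ZNF genes took 0.128%, 0.141% and 0.154% of all counts in the control libraries and 0.167%, 0.205% and 0.150% after CYT. On these totals the groups overlapped, since CYT replicate 3 lay below control replicate 3, but with TMM-scaled library sizes they did not (0.133% to 0.156% in control and 0.159% to 0.190% after CYT). The ratio of the means on the totals was 1.23 (0.141% ± 0.0134 and 0.174% ± 0.0282, SD, n = 3 each). The ZNF genes of other chromosomes were higher in share by a ratio of 1.17, from 0.336% ± 0.000500 to 0.393% ± 0.0227 with the groups apart, and the other coding genes of chromosome 19 had a ratio of 0.890. More genes were detected after CYT, members and others alike. Of the members, 162, 175 and 158 had at least 10 counts after CYT (63.5% to 70.3%), against 152, 156 and 152 in control (61.0% to 62.7%), while over all protein-coding genes the share was 64.6% to 65.3% after CYT and 62.2% to 63.0% in control. The number of members at 0 was 54, 45 and 58 after CYT and 72, 74 and 73 in control (18.1% to 23.3% and 28.9% to 29.7%, against 19.7% to 22.8% and 28.2% to 28.7% of protein-coding genes), although CYT replicates 2 and 3 were smaller libraries than every control.

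Among called genes averaging at least 1 CPM, the largest rise was that of ZNF616, a KRAB protein gene with 21 fingers in cluster 8. It had 13, 9 and 10 counts in the control libraries and 103, 255 and 84 after CYT, a fold change of 16.01 (log2 3.99 ± 0.54, SE, edgeR adjusted p = 0.00124). The lowest CYT library stood far above the highest control library. Next came ZNF420, a KRAB protein gene with 19 fingers also known as Apak, a negative regulator of p53. Its counts were 16, 9 and 7 in control and 55, 153 and 45 after CYT, 9.29-fold higher (log2 3.20 ± 0.60, edgeR adjusted p = 0.00435), again without overlap. Without CYT replicate 2, the log2 fold changes were 3.38 for ZNF616, 2.49 for ZNF420 and 2.24 for ZNF225, and all remained called.

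The neighbouring genes ZNF224 and ZNF225 rose to a similar extent. ZNF224, a repressor of the aldolase A gene and a partner of WT1, had 25, 20 and 39 counts in control and 120, 227 and 228 after CYT (7.89-fold, log2 2.99 ± 0.48, edgeR adjusted p = 0.00239). ZNF225 had 27, 51 and 20 counts in control and 84, 420 and 161 after CYT (8.34-fold, log2 3.05 ± 0.60, edgeR adjusted p = 0.00535). In both genes all CYT libraries were above all control libraries, and for ZNF225 replicate 2 was the highest of its group by a wide margin. Exons of both overlap the antisense gene AC021092.1, which was called higher as well (0, 2 and 5 counts against 15, 21 and 30). Whether the counting used strand was not given in the sources used here, and without strand the reads of a gene and of its antisense partner cannot be told apart.

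ZNF230, at the start of the same run of genes and first described in testis, had 44, 52 and 63 counts in control and 207, 473 and 185 after CYT (6.28-fold, log2 2.65 ± 0.45, edgeR adjusted p = 0.00292). ZNF441, in cluster 3, had 18, 43 and 12 counts against 122, 223 and 96 (7.52-fold, log2 2.89 ± 0.50, edgeR adjusted p = 0.00312). Both were separated from control in every library. ZNF816 in cluster 8 had 29, 60 and 33 counts against 133, 379 and 204 (7.14-fold, log2 2.83 ± 0.47, edgeR adjusted p = 0.00257). It shares exons with the read-through gene ZNF816-ZNF321P, which had 0 counts in control and at most 9 after CYT. ZNF175, also called OTK18 and known as a repressor of HIV-1 transcription, had 62, 80 and 54 counts against 292, 513 and 222 (6.24-fold, log2 2.64 ± 0.38, edgeR adjusted p = 0.00156), and its control libraries lay close together. Over the 36 genes called higher that had counts in control, the fold change ran from 2.35 to 16.01 with a median of 3.73.

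**Figure D2:**
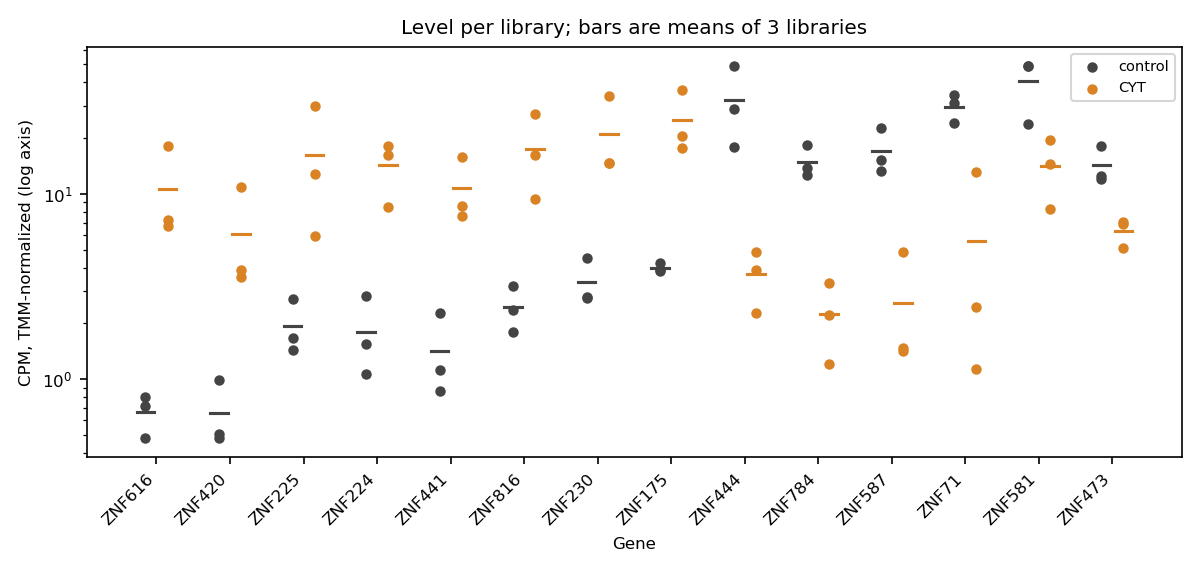
Points give the TMM-normalized CPM of each library on a log axis for the named rising and falling genes, control in grey and CYT in orange, and bars the mean of 3 libraries. The 14 genes were chosen partly by this contrast, so the gap between groups is a description: ZNF616 went from a mean of 0.668 to 10.7 CPM and ZNF444 from 32.0 to 3.68 CPM.

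Another pair was counted after CYT alone. ZNF382, a KRAB protein gene described as a repressor that is silenced in several carcinomas, had 0 counts in each control library and 11, 15 and 18 after CYT, at least 5.83-fold higher when control is set at a floor of 3 counts per library, scaled by TMM. ZNF528, named here after its values were seen, had 0 counts in each control library and 16, 11 and 10 after CYT, at least 4.82-fold higher. Both were called higher by edgeR, and each in 13 of 16 alternative fits, but at 3 counts or fewer per library the control level was not detectable at this depth. Each passed the count filter through its CYT libraries alone, so only a rise could be called. Repeat calls in fits that share this filter are therefore no support for the rise. ZNF44 (0, 7 and 0 counts against 26, 17 and 11) and ZNF559-ZNF177 (3, 0 and 6 against 12, 21 and 16) passed it in the same way.

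The falling genes were fewer and better expressed. ZNF444, a SCAN domain protein gene that binds the promoter of the scavenger receptor SCARF1, had 289, 540 and 685 counts in control and 69, 32 and 49 after CYT. It fell by 3.12 on the log2 scale (SE 0.47, edgeR adjusted p = 0.00193), the largest fall in the set, and the groups were far apart. ZNF784, which encodes 6 fingers and no KRAB pattern, had 297, 239 and 191 counts in control and 47, 17 and 28 after CYT. It fell by 2.73 (SE 0.43, edgeR adjusted p = 0.00226). ZNF587, a KRAB protein gene, had 214, 424 and 212 counts against 21, 20 and 61 and fell by 2.73 as well (SE 0.53, edgeR adjusted p = 0.00512), with no library of one group inside the range of the other, and without CYT replicate 3 its log2 fold change was -3.53. With limma on log2(FPKM + 1), ZNF420, ZNF225, ZNF382 and ZNF587 were not called.

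ZNF71, known as a gene induced by tumour necrosis factor in endothelial cells, had 497, 451 and 473 counts in control and 35, 16 and 165 after CYT. Its control libraries were nearly level and its CYT libraries spread widely, and it fell by 2.41 (SE 0.74, edgeR adjusted p = 0.0360). The ZNF71 call was lost in 4 of 16 alternative fits, those without any 1 control library or without CYT replicate 1, and without CYT replicate 3 the log2 fold change was -4.003. ZNF473, the U7 snRNP-associated factor ZFP100 of histone mRNA 3′ end processing, had 202, 227 and 252 counts against 98, 99 and 64 and fell by 1.16 (SE 0.34, edgeR adjusted p = 0.0290). It was the smallest of the falls, and the call was lost in 7 of 16 alternative fits. Exons of ZNF473 overlap VRK3 on the opposite strand (958, 796 and 728 counts in control), so without strand its reads are uncertain. ZNF581, with 4 fingers, had 386, 918 and 678 counts against 276, 117 and 182 and fell by 1.52 (SE 0.42, edgeR adjusted p = 0.0229). ZNF581 shares exons on its strand with CCDC106, which was called lower, and with ZNF580, which was not called, so its reads are uncertain, and its call was lost in 3 of 16 alternative fits. The remaining fall, ZNF358, was called at a log2 fold change of -2.25 with 474, 138 and 478 counts against 57, 27 and 114, and its groups overlapped once scaled for depth. The ZNF358 call was lost in 3 of 16 alternative fits, those without CYT replicate 1, control replicate 1 or control replicate 3 (edgeR adjusted p = 0.0896, 0.0859 and 0.102), and without CYT replicate 3 the log2 fold change was -2.96.

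Per length, the highest level was that of ZNF787 at 25.5 FPKM (mean of 6 libraries), followed by ZNF416 at 10.1, ZNF526 at 8.48 and ZNF581 at 8.44 FPKM. ZNF787 was lower in every CYT library and not called (log2 fold change -1.48, edgeR adjusted p = 0.0983), although with the replicate block it was (log2 -1.86, edgeR adjusted p = 0.0101). ZNF416, a KRAB protein gene, was the exception among these in rising: 202, 154 and 180 counts in control and 541, 572 and 538 after CYT (3.61-fold, log2 1.85 ± 0.31, edgeR adjusted p = 0.00279). Its CYT libraries were nearly equal, and its exons overlap those of ZIK1 on the opposite strand, which was called higher too (1, 0 and 0 counts against 25, 54 and 10). ZNF526 differed little (log2 0.19).

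The other members chosen for a known role were not called in the fit without a block. ZNF91, which restrains SVA elements, had 12, 20 and 11 counts in control and 13, 13 and 8 after CYT (log2 fold change -0.07, edgeR adjusted p = 0.931), and its sign changed with the scaling. ZNF93, which restrains L1 elements, had 0 counts in every library. ZNF274, which brings SETDB1 to the 3′ ends of ZNF genes, had 684, 612 and 532 counts in control and 879, 970 and 710 after CYT. Every CYT library was above every control library, at a log2 fold change of 0.73 (edgeR adjusted p = 0.0784). ZNF350, a BRCA1 partner also called ZBRK1, had 21, 26 and 32 counts against 16, 38 and 22 (log2 0.17, edgeR adjusted p = 0.831). ZNF146, which consists of fingers without a KRAB domain, had 462, 856 and 550 counts against 219, 28 and 5 (log2 -2.67 ± 0.94, edgeR adjusted p = 0.0589). Its CYT libraries were all below control and differed widely among themselves, and it was not called without a block but was called lower with the replicate block (log2 -3.72, edgeR adjusted p = 0.0118) and in 6 of 16 alternative fits in all. Without CYT replicate 1 its log2 fold change was -4.97 (edgeR adjusted p = 0.00304). The imprinted gene ZNF331 (0, 0 and 0 counts against 0, 2 and 0) and ZNF808, needed for pancreas development (5, 7 and 5 against 5, 31 and 10), had too few counts to be tested.

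Of the 86 members not tested, 32 had 0 counts in every library and the other 54 had at most 48 counts in any library, and in 50 of those 54 (92.6%) the share of counts was higher after CYT. Among untested genes with counts, that was so for 3970 of 4847 protein-coding genes (81.9%) and 73.9% of all genes. Silent members were concentrated in cluster 4, with 18 of its 37 genes at 0 throughout, against 4 of 40 in cluster 8 and 3 of 59 in cluster 9.

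Ordered along the chromosome and parted at gaps over 1 Mb, 238 of the genes formed 9 clusters of at least 5 members, numbered from the short arm to the end of the long arm, and 11 lay scattered. Cluster 8 (chr19:51571298-53580269, GRCh38) had 12 of 24 tested genes called higher, none lower and a median log2 fold change of 1.24, with 22 of 24 above zero, beside the 11.9% called higher and 13.8% called lower of all protein-coding genes. Cluster 7 (chr19:43525497-45076588) had 7 of 17 higher, none lower and a median of 0.98. With a library left out, it had 4 to 6 higher, 0 to 1 lower and medians of 0.55 to 1.36. Limma on log2(FPKM + 1) called 3 higher. Clusters 3 and 6, at chr19:11483427-12640098 and chr19:36182060-37817300, each had 4 higher (of 16 and 17 tested) and none lower, with medians of 0.97 and 1.04. With a library left out, cluster 3 had 1 to 4 higher and medians of 0.50 to 1.48. Cluster 6 then had 2 to 4 higher, 0 to 2 lower and medians of 0.53 to 1.27. Cluster 2 had 5 of 13 higher and 1 lower, with a median of 0.32. With a library left out, its count of higher genes was 1 to 4. Its median then ran from -0.09 (without CYT replicate 2) to 0.62, and limma on log2(FPKM + 1) called 0 higher.

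The clusters near the centromere and the telomere looked otherwise. Cluster 4 (chr19:19668796-24129961), which holds ZNF91 and ZNF93, had 1 of 13 tested genes higher (7.69%), none lower and a median of 0.06. With a library left out, the counts stayed the same and the median ran from -0.14 to 0.34, so its sign depended on single libraries. Cluster 9 (chr19:55476332-58481230), the largest with 59 members, had 5 of 47 higher and 5 lower (10.6% each, near the 11.9% and 13.8% of protein-coding genes) and a median of 0.23. With a library left out, it had 2 to 6 higher and 3 to 9 lower. The GC and length correction gave 7 higher and 10 lower. Clusters 1 and 5, with 4 tested genes each, had none called, and their medians were 0.36 and -0.03. The median of cluster 8 was above that of cluster 9 in all 16 alternative fits, at 0.39 to 1.69 against 0.06 to 0.50, and the difference between clusters was not tested because neighbouring genes share sequence and are not replicates. The median exonic GC content of the tested genes was 41.5% in cluster 8 and 47.4% in cluster 9.

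**Figure D3:**
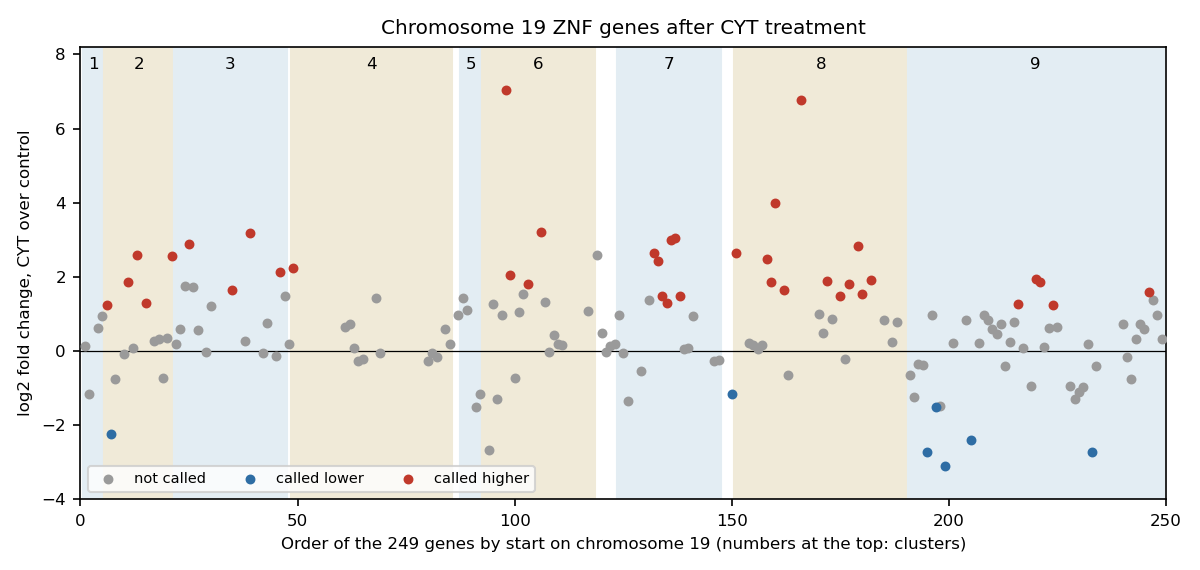
The log2 fold change of each of the 163 tested genes (CYT over control) is set against its order among all 249 genes by start on chromosome 19, with the 9 clusters shaded and numbered and called genes in red (higher) or blue (lower). Red points gather in clusters 7 and 8, which hold 19 of the 38, 5 of the 7 blue points are in cluster 9, and the 2 highest points, ZNF382 and ZNF528, had 0 counts in control, so their height depends on the fit and is no bound.

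Some genes called higher stood side by side among tested members. Whether there were more runs than the share called in each cluster would give was not tested. In cluster 7, a run of 7 spanned chr19:44002948-44160309 and comprised ZNF230, ZNF222, ZNF223, ZNF284, ZNF224, ZNF225 and ZNF234. Its less changed members, named for their place in the run after their values were seen, went from 45, 60 and 43 counts to 96, 139 and 69 (ZNF284, log2 1.29), from 42, 44 and 34 to 55, 159 and 67 (ZNF223, log2 1.47) and from 15, 34 and 30 to 81, 53 and 53 (ZNF234, log2 1.48). They were called in 10, 7 and 8 of 16 alternative fits. The next genes outward were not called: ZNF155 on one side (log2 1.36, edgeR adjusted p = 0.262) and ZNF226 on the other (log2 0.05, edgeR adjusted p = 0.933). In cluster 8, runs of 4 were ZNF432, ZNF841, ZNF616 and ZNF766 (chr19:52031379-52296046) and ZNF888, ZNF816, ZNF160 and ZNF347 (chr19:52904417-53159075). Of these, ZNF766 was called in 10 and ZNF160 in 12 of 16 alternative fits, and the others in 15 or 16. ZNF480, the tested gene next to ZNF766, was not called and lay on the other side of zero, with 116, 134 and 106 counts in control and 50, 78 and 62 after CYT (log2 -0.65, edgeR adjusted p = 0.186). These boundary genes were also chosen after their values were seen. Members of a run are close paralogs, and reads that match several of them are uncertain, since the handling of multiple matches was not given in the sources used here.

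Protein features were read from the longest complete GENCODE 29 coding sequence of each gene, translated. The number of C2H2 fingers ran from 0 to 36 with a median of 12. None of the 11 tested genes with at most 5 fingers was called higher and 2 (18.2%) were called lower (median log2 fold change -0.22). With 6 to 10 fingers, 12 of 46 (26.1%) were higher and 2 (4.35%) lower. With 11 to 15, 15 of 66 (22.7%) were higher and 2 (3.03%) lower. With 16 or more, 11 of 40 (27.5%) were higher and 1 (2.50%) lower. The background was 15.2% higher and 12.2% lower of all tested genes, and 11.9% and 13.8% of protein-coding genes. Across the 163 genes the Spearman correlation between log2 fold change and finger number was 0.16, a description over genes that share libraries. The genes with at most 5 fingers had a median GC content of 59.6%.

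The KRAB A box was recognised by a pattern of residues that ends in tryptophan. With it, 28 of 112 tested genes carrying the pattern were called higher and 2 lower (median log2 fold change 0.62), against 10 higher and 5 lower of 51 without it (median 0.19). In the fit corrected for GC content and length, the medians were closer, at 0.53 with the pattern (36 higher and 5 lower) and 0.39 without it (12 higher and 9 lower), and without CYT replicate 2 they were 0.37 and 0.10. Of all genes in the corrected fit, 17.2% were higher and 15.6% lower. The pattern missed several KRAB genes of cluster 7, so a version allowing leucine in that last place was added after the data were seen. That change moved genes called higher, and none called lower, into the class with the pattern. The wider gap in this version was thus shaped by these same data and is no support for a difference. With that version, 35 of 124 (28.2%) were called higher and 2 (1.61%) lower (median 0.72). Of 39 without the pattern, 3 (7.69%) were higher and 5 (12.8%) lower (median -0.08). The calls without it were the rises of ZNF461, ZNF345 and ZNF611 and the falls of ZNF358, ZNF473, ZNF784, ZNF581 and ZNF444. The genes with the pattern that fell were ZNF587 and ZNF71. A gene without the pattern is not shown to lack the domain. The genes with and without the pattern also differed in GC content, with medians of 42.4% and 57.8%, and in level, with 4.84 and 12.98 CPM. For the added version, the corrected fit gave medians of 0.61 with the pattern (43 higher and 5 lower) and 0.11 without it (5 higher and 9 lower). Without CYT replicate 2 they were 0.43 and 0.03, with 28 higher and 6 lower against 4 and 8. Of all genes in that fit, 16.4% were higher and 14.4% lower. In both versions the median with the pattern was the larger in all 16 alternative fits.

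**Figure D4:**
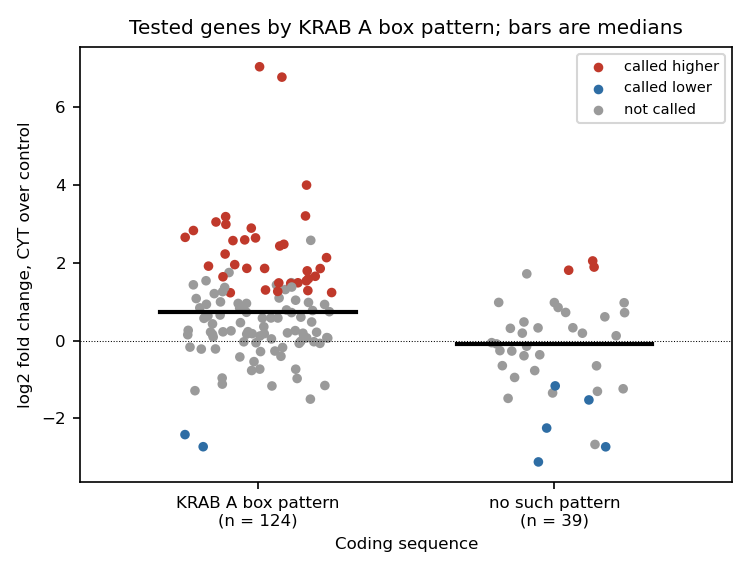
Each point is the log2 fold change of a tested gene (CYT over control), split by whether its coding sequence holds the KRAB A box pattern in the version that ends in tryptophan or leucine, with bars at the medians and sideways spread for legibility. The 124 genes with the pattern have a median of 0.72 and 2 blue points, and the 39 without it a median of -0.08 and 5 blue points. This version was added after the data were seen, and the version ending in tryptophan alone gave medians of 0.62 and 0.19.

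Overlap with other genes was frequent. Exons of 79 members overlapped a gene on the opposite strand, and of the 52 tested among them 11 were called higher and 3 lower, against 27 and 4 of the 111 without such overlap. Another 26 members overlapped a different ZNF gene on the same strand. Of their 17 tested genes, 6 (35.3%) were called higher and 1 (5.88%) lower, against 32 (21.9%) and 6 (4.11%) of 146. Among the genes named above, exons of ZNF587, ZNF382 and ZNF146 overlap ZNF814, ZNF529 and ZNF565 on the opposite strand. Those of ZNF358 overlap AC008878.4 there. Without strand, the reads of these genes are uncertain as well.

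On a wider list of KRAB cofactor and heterochromatin genes, calls were made in both directions. None was in TRIM28, SETDB1, the heterochromatin protein genes CBX1, CBX3 and CBX5, or the histone deacetylase genes HDAC1 and HDAC2. Of the 30 genes, 29 were tested, and 2 (6.90%) were called higher and 5 (17.2%) lower by edgeR. The shares were 15.2% and 12.2% of all genes and 11.9% and 13.8% of protein-coding genes. The median log2 fold change of the list was -0.03. Every CYT library was above control in 3 (10.3%) and below it in 8 (27.6%), against 23.4% and 22.7% of all genes. TRIM28, the scaffold bound by KRAB, had 20462, 13547 and 10660 counts in control and 8391, 4089 and 10074 after CYT (log2 -0.71 ± 0.40, edgeR adjusted p = 0.211). It was abundant in all libraries and its spread within groups was wide. SETDB1, the H3K9 methyltransferase it recruits, had 431, 329 and 324 counts against 198, 187 and 160 (log2 -0.76 ± 0.30, edgeR adjusted p = 0.0915). The SETDB1 groups did not overlap, and the gene was not called. ATF7IP, the partner that stabilises SETDB1, had a log2 fold change of -0.03 whose sign changed with the scaling, and CBX5, a heterochromatin protein that binds H3K9me3, one of -0.45 (edgeR adjusted p = 0.343).

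Genes of the HUSH complex, which works with SETDB1 and MORC2 on retroelements, were called in one case. FAM208A (TASOR), its scaffold, rose from 477, 1042 and 416 counts to 967, 2746 and 830 (log2 1.52 ± 0.48, edgeR adjusted p = 0.0418). MPHOSPH8, its chromodomain subunit, and MORC2 had log2 fold changes of 0.39 and 0.48 (edgeR adjusted p = 0.389 and 0.230). SUV39H2, a methyltransferase of H3K9, rose from 129, 199 and 129 counts to 347, 431 and 214 (log2 1.37 ± 0.34, edgeR adjusted p = 0.0146). Neither rise was called without control replicate 1, without control replicate 3 or with limma on log2(FPKM + 1), and FAM208A lost its call without CYT replicate 2 as well (log2 0.79, edgeR adjusted p = 0.0872) and with limma on log2(FPKM + 0.1).

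The falls were in other silencing enzymes. EHMT2 (G9a), which dimethylates H3K9 together with EHMT1 (GLP), had 2926, 2110 and 2032 counts in control and 606, 297 and 620 after CYT. It fell by 1.96 on the log2 scale (SE 0.38, edgeR adjusted p = 0.00523), and EHMT1 fell by 1.63 (SE 0.38, edgeR adjusted p = 0.0113) with 812, 500 and 599 counts against 235, 119 and 174, a call lost in 1 of 16 alternative fits. Both members of this pair were lower in every CYT library. The DNA methyltransferase DNMT3B fell by 1.75 (SE 0.45, edgeR adjusted p = 0.0174) from 167, 94 and 87 counts to 36, 19 and 32, and was not called without control replicate 1 (log2 -1.41, edgeR adjusted p = 0.0733) or with limma on log2(FPKM + 1). The maintenance methyltransferase DNMT1 fell by 1.04 (SE 0.29, edgeR adjusted p = 0.0255) from 4589, 3780 and 3361 to 1953, 1299 and 1540, a call just past the fold threshold that was lost in 11 of 16 alternative fits (log2 -0.70 with the GC correction). SMARCAD1, a remodeller that keeps silent chromatin through replication, fell by 1.52 (SE 0.39, edgeR adjusted p = 0.0172) from 293, 582 and 264 to 87, 160 and 79, and its call was lost without CYT replicate 1 (edgeR adjusted p = 0.0641), without CYT replicate 3 (edgeR adjusted p = 0.0678) and with limma on log2(FPKM + 1). In all 5 falls the groups were separate before and after scaling for depth. Whether any of these moved the ZNF genes was not tested.

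**Figure D5:**
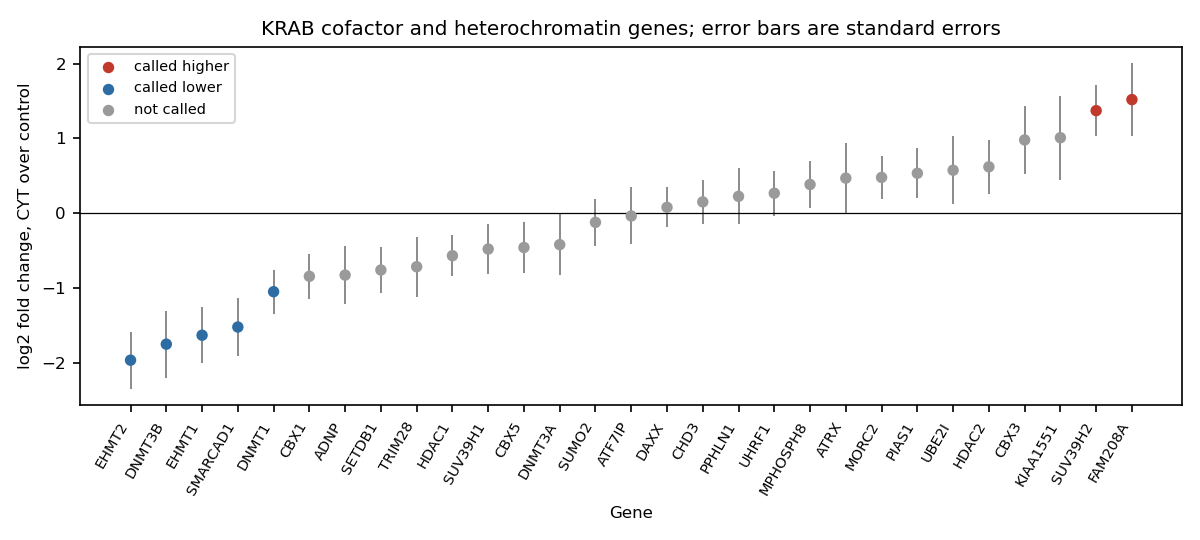
Points give the log2 fold change (CYT over control) of the 29 tested KRAB cofactor and heterochromatin genes in order of size, with standard errors as bars and called genes coloured. From EHMT2 at -1.96 to FAM208A at 1.52, 5 were called lower, 2 higher and 22 were not called, TRIM28 (-0.71) and SETDB1 (-0.76) among them.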

How the data were processed

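Total RNA was extracted from 3 control and 3 CYT-treated samples of MDA-MB-231-DR cells, mRNA was selected, and libraries were sequenced on an Illumina instrument. The authors removed low-quality, adapter and ribosomal sequences, aligned reads with Hisat2, obtained FPKM with Stringtie and quantified genes with a package whose name in the methods is read here as edgeR. Versions, the handling of multiple matches and the use of strand were not given in the sources used here. The deposited table held whole-number read counts per gene and FPKM per library, and columns of the authors' own comparison (fold changes and p-values), which were not used. Coordinates are those of the table (GRCh38), and 242 of 249 members had the same locus in GENCODE 29.

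Counts as deposited were tested with edgeR 4.0.16 in R 4.3.3 (TMM, filterByExpr with a minimum count of 10, quasi-likelihood F test, CYT against control, 15572 genes, Benjamini-Hochberg over all of them). A call needed an adjusted p under 0.05 together with a log2 fold change past 1 in either direction. The biological coefficient of variation was 37.5%. With 3 against 3 libraries, an exact permutation test cannot go below p = 0.1, so none was run. FPKM was used for levels between genes and in limma 3.58.1. DESeq2 1.42.0, other filters and scalings, a GC and length correction, a replicate block and leaving out each library were the alternatives. The procedure was checked on simulated counts.

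Named genes were the 8 largest rises and 8 largest falls among called members averaging at least 1 CPM without overlap between groups (6 falls qualified), the 4 of highest FPKM, members known by role, and from the cofactor list the called genes and 6 others. Members, lists and named genes were chosen with earlier results of these data known. Fingers were counted in the translated coding sequences by the spacing of 2 cysteines and 2 histidines. The KRAB A box pattern was F or L, any residue, D or E, V or L, a gap, F or L, any pair, E, D or Q, E or Q, and W. Libraries with the same replicate number deviated together over genes (r = 0.188, 0.458 and 0.124 for replicates 1, 2 and 3), which met the rule for pairing set at over 0.1 for each, although control replicate 1 with CYT replicate 3 (0.303) and control replicate 3 with CYT replicate 1 (0.201) also did.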

Additional observations from a re-analysis of the deposited data

How the results depend on the processing

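Calls were read over 16 alternative fits. All 16 called 12 of the 38 rises (ZNF441, ZNF101, ZNF230, ZNF222, ZNF224, ZNF175, ZNF432, ZNF841, ZNF616, ZNF888, ZNF816 and ZNF416) and 2 of the 7 falls (ZNF784 and ZNF444). The count of members called higher was 12 with limma on log2(FPKM + 1) (7.36%, against 8.12% of all genes) and 25 with log2(FPKM + 0.1), and 22 to 33 when each library was left out in turn (12.9% to 19.5%, against 10.3% to 16.4% of all genes). With the replicate block, 43 were higher and 13 lower (7.98%, against 15.5%). The GC content and length correction gave 14 lower (8.59%, against 15.6%), and with the replicate block 15 (9.20%, against 15.4%). Leaving out each library gave 3 to 14 lower (1.75% to 8.54%, against 7.36% to 14.4%), the highest without CYT replicate 2. The median log2 fold change was 0.12 with log2(FPKM + 1), a scale that shrinks low genes, and kept its sign elsewhere (0.30 to 0.70 with a library left out). Upper-quartile scaling moved the median of all genes to 0.16 and that of the members to 0.72. Without a filter 217 members were tested, with 37 higher (17.1%, against 9.18%), 10 lower (4.61%, against 6.78%) and a median of 0.78 against 0.41 over all genes. DESeq2 gave 43 (26.4%, against 17.2%) and 10 (6.13%, against 13.3%). The ratio of the shares of counts was 1.12 to 1.32 with a library left out.

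Of the cofactors, 0 were higher with log2(FPKM + 1), 1 with log2(FPKM + 0.1) and 0 to 2 with a library left out. Lower calls were 3 at a mean of at least 5 CPM, 1 with log2(FPKM + 1) and 3 to 6 with a library left out. What caused these shifts was not tested.

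Over 35 named genes, 480 of 555 values kept their direction and side of the threshold, 44 lost the call, 12 gained one and 19 changed sign, all in genes near zero. ZNF91 became 0.076 with upper-quartile scaling, 0.062 with the GC correction, 0.029 with that and the replicate block, 0.0022 with coding genes only, and ran from -0.19 to 0.10 with a library left out. ZNF350 ran from -0.21 to 0.44 with a library left out. ATF7IP became 0.11 (upper quartile), 0.064 (at least 5 CPM), 0.0062 and 0.036 (limma), 0.025 (replicate block), 0.17 and 0.19 (GC, GC with block), 0.034 (coding only), and -0.27 to 0.38 with a library left out.

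Of the 249 members, 86 had too few counts to be tested, and 32 of these had 0 counts in every library. The median standard error of the log2 fold change was 0.48 over those tested. The part of sequencing depth in this was not tested.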
